A study of Mus musculus with 2 samples.

Results

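The 9 genes described here code for complement components and regulators: C3, C4b, C2, Cfb, Cfd, Cfp, Serping1, Cd55 and Masp1. They were taken by gene symbol from a table of 37309 genes, and each symbol matched 1 row. The study compared intestinal subepithelial myofibroblasts (ISEMFs), the contractile stromal cells that lie under the gut epithelium, from C57BL/6 mouse small intestine. Supportive ISEMFs came from neonatal mice (5 days old per the study's methods) and could sustain enteroids, the epithelial structures that grow from crypts, without added R-spondin. Non-supportive ISEMFs came from adult mice (2 months old) and sustained them weakly. Both were isolated by digestion, expanded in serum-containing medium and sequenced as 1 library each, without further treatment. There was therefore no replicate, and the age of the donors, the isolation and the population cannot be told apart. Codes in the deposited names may mark a later passage for supportive than for non-supportive cells, but no label explains them, and passage in culture cannot be told apart from population either. Reads on genes numbered 50674472 for supportive and 49615497 for non-supportive ISEMFs.

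Complement is a cascade of plasma proteases that tags particles and cells for removal. The classical pathway starts from C1, the lectin pathway from sugar-binding collectins with MASP proteases, and the alternative pathway from C3 itself with factors B and D. All converge on C3 convertases, which cut C3, and soluble and membrane-bound regulators keep this in check on host cells. The liver makes most of the circulating proteins, while stromal and myeloid cells make some of them locally.

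Levels are given as RPKM, that is, reads scaled to the exon length of the gene and to the size of the library. A gene is called expressed where its RPKM reached 1 in at least 1 of the libraries. By that rule 4 of the 9 genes were expressed, namely Masp1, Serping1, Cfp and C3. Masp1 had the highest level of the 9 in both libraries and differed by under 2-fold. Serping1, Cfp and C3 were lower in supportive ISEMFs, and each reached the minimum in non-supportive ISEMFs alone. The other 5 genes, C4b, C2, Cfb, Cfd and Cd55, stayed under 0.1 RPKM in both libraries. Across the 22379 protein-coding genes, 40.7% were expressed and 43.2% stayed under 0.1 RPKM in both. Macrophage marker genes differed in the same direction as C3, Cfp and Serping1, with a summed RPKM of 9.47 in supportive and 128 in non-supportive ISEMFs. Lyz2 alone gave 6.31 and 72.7 of these sums. At least 2-fold lower too were 3 of 7 myofibroblast markers, against 8.98% of expressed protein-coding genes. Of the 3, Des reached the minimum in non-supportive ISEMFs alone and so had to be lower to some degree. The summed RPKM of the 7 was 1787 in supportive and 2589 in non-supportive ISEMFs. Fewer cells of a type and less RNA per cell cannot be told apart in such bulk libraries.

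Promoter sequences from RefSeq (GRCm38.p6, from 250 bases before to 50 bases after the start of transcription) were found for C3, Cfd, Cfp and Cd55, that is for 4 of the 9 genes. Those of C3 (chr17:57228087-57228386, minus strand) and Cfp (chrX:20931506-20931805, minus strand) are shown because these genes were at least 2-fold lower in the supportive library. Capitals mark a C/EBP motif in C3 and PU.1 motifs in Cfp, both named for transcription factors of liver, stromal or myeloid cells.
C3: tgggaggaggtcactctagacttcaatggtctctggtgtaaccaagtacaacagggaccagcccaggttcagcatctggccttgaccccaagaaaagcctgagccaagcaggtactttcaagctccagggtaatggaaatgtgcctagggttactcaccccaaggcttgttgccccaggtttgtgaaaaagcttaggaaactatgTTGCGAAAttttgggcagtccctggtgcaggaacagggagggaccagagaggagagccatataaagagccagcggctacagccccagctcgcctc
Cfp: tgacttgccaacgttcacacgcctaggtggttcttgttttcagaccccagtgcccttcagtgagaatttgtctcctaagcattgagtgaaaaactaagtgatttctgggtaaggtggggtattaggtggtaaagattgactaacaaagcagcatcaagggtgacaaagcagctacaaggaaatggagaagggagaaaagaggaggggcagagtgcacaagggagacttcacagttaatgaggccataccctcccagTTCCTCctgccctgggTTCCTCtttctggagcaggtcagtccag

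The search covered both strands for TTGCNNAA (C/EBP), GGNNNTTCC (NF-kappaB), TTCNNNGAA (STAT), GAAANNGAA (IRF) and GAGGAA (PU.1). The C/EBP letters stood once in the C3 window, from -45 to -38 relative to the start, and are found in 10.8% of 32851 promoters of the same length. The PU.1 letters stood in the Cfp window from 7 to 12 and from 23 to 28, as the reverse complement, and are found in 28.3% of promoters. The motifs found did not overlap. In the Cd55 window, which is not printed, the NF-kappaB letters stood once, as they do in 18.5% of promoters, and the Cfd window held no match. The STAT and IRF letters are found in 8.30% and 8.56% of promoters and were not in these 4 windows. A match of letters is a description of the sequence, and binding was not measured.

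C3 is the protein that all complement pathways activate. In the mm9 assembly it spans bases 57343397 to 57367559 of chromosome 17 (minus strand) and has 41 separate exon blocks. Supportive ISEMFs gave 23 reads (0.0627 RPKM) and non-supportive ISEMFs 400 reads (1.12 RPKM). The level was 17.9-fold lower in supportive ISEMFs, with an exact Clopper-Pearson 95% interval from the reads of 11.8 to 28.6. By level, C3 was rank 8200 of the protein-coding genes in non-supportive and rank 12423 in supportive ISEMFs. These intervals cover the counting of reads only, not the spread between cultures.

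Cfp, Cfb and Cfd act in the alternative pathway. Cfp codes for properdin, which stabilizes the alternative C3 convertase, and lies on chromosome X from 20502580 to 20508681. Supportive ISEMFs gave 60 reads (0.412 RPKM) and non-supportive ISEMFs 199 (1.41 RPKM), a level 3.41-fold lower in the former (95% interval, 2.55 to 4.63). Cfb codes for factor B, the protease of that convertase, and lies on chromosome 17 from 34993319 to 34999463. It had 15 reads (0.0463 RPKM) in supportive and 2 reads (0.00636 RPKM) in non-supportive ISEMFs. The ratio of 7.29 was in the opposite direction to that of C3 and Cfp, with a wide 95% interval of 1.70 to 65.7. Cfd, the gene of factor D or adipsin, which cuts factor B, lies on chromosome 10 from 79353598 to 79355401. It had 0 reads in supportive and 1 read in non-supportive ISEMFs. No fold is given for it, since 3 reads or fewer were counted in both, and 3 reads would be 0.0455 and 0.0468 RPKM.

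C4b, C2 and Masp1 belong to the classical and lectin pathways. C4b codes for C4, which forms the C3 convertase of both with C2, and lies on chromosome 17 from 34865325 to 34880827. All of its 19 reads came from supportive ISEMFs (0.0428 RPKM). Set against 3 reads (0.00695 RPKM) in place of the 0 of non-supportive ISEMFs, it was at least 6.15-fold higher in supportive ISEMFs. Such bounds take the reads of the other library as counted, and with the counting error of both libraries the exact 95% lower limit of the C4b ratio was 4.54. C2, the protease partner of C4 on chromosome 17 from 34999549 to 35035397, had 3 reads in supportive and 5 in non-supportive ISEMFs. Its ratio of 0.583 had a 95% interval of 0.0905 to 2.997, so a difference was not detectable at this depth.

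Masp1 codes for the MASP-1 protease, which is carried by collectins and ficolins, and by alternative splicing also for MASP-3 and a short non-protease form. Counts per gene do not separate these forms. The gene lies on chromosome 16 from 23449490 to 23520676. Supportive ISEMFs gave 4183 reads (9.73 RPKM) and non-supportive ISEMFs 3380 (8.09 RPKM). The ratio of 1.20 had a 95% interval of 1.15 to 1.26, which leaves out 1 but stays well under 2. Masp1 was rank 2390 of the protein-coding genes by level in supportive and rank 2930 in non-supportive ISEMFs. It made up 94.5% of the reads of the 9 genes in the former and 76.6% in the latter. The 9 genes together had 4426 and 4415 reads, but without Masp1 the other 8 had 243 reads in supportive and 1035 in non-supportive ISEMFs.

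Serping1 and Cd55 are regulators. Serping1 codes for the C1 inhibitor, a secreted serpin that blocks C1r, C1s and the MASP proteases, and lies on chromosome 2 from 84605544 to 84615601. Supportive ISEMFs gave 116 reads (0.596 RPKM) and non-supportive ISEMFs 413 (2.18 RPKM). Its level was 3.66-fold lower in supportive ISEMFs (95% interval, 2.97 to 4.54). Cd55, or decay-accelerating factor, takes C3 convertases apart on the cell surface, and lies on chromosome 1 from 132335604 to 132359321. It had 7 reads (0.0162 RPKM) in supportive and 15 reads (0.0356 RPKM) in non-supportive ISEMFs. The ratio of 0.454 had a 95% interval of 0.156 to 1.18, and a difference was not detectable at this depth.

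**Figure D1:**
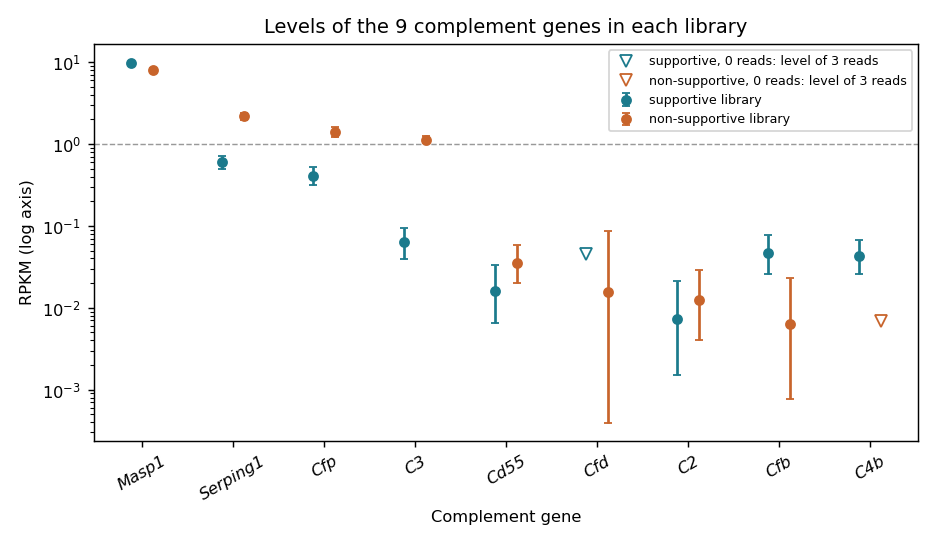
RPKM of the 9 complement genes on a log axis for supportive and non-supportive ISEMFs, with exact Poisson 95% intervals of the reads, and open triangles at the level of 3 reads where a library had 0 reads. The dashed line is 1 RPKM. Masp1 is high in both libraries, Serping1, Cfp and C3 are above 1 in non-supportive ISEMFs alone, and the other 5 genes are under 0.1.

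By level per exon length, the order in supportive ISEMFs was Masp1, Serping1, Cfp, C3, Cfb, C4b, Cd55, C2 and Cfd. The intervals of the ratios could not separate C3 from Cfb, Cfb from C4b, Cd55 from C2, or C2 from Cfd. In non-supportive ISEMFs the first 4 genes stood in the same order, and each was separated from the next. There Cd55, Cfd, C2, Cfb and C4b followed, and none of these was separated from its neighbour. The distance between Masp1 and Serping1 was 16.3-fold (95% interval, 13.6 to 19.8) in supportive ISEMFs and 3.70-fold (3.34 to 4.11) in the others.

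For comparison with all genes, log2 ratios of supportive over non-supportive were computed from RPKM + 0.1, which understates the difference of low genes. They were -2.91 for C3, -1.71 for Serping1, -1.56 for Cfp and 0.26 for Masp1. At least 2-fold lower were 3 of the 4 expressed genes, against a background of 8.98% of the 9110 expressed protein-coding genes. These 3 genes passed the minimum through non-supportive ISEMFs alone and so had to be lower to some degree. At least 2-fold higher were 0 of the 4, against 9.25% of those genes, while C4b and Cfb, whose reads were higher in supportive ISEMFs, lay below the minimum. The log2 ratio of C3 was above that of 2.01% of the 9110 genes, Serping1 above 3.97%, Cfp above 4.64% and Masp1 above 70.7%. With a pseudocount of 1 in place of 0.1, the log2 ratios of C3 and Serping1 were -0.998 and -0.996, that of Cfp was -0.77, and 0 of the 3 genes passed the 2-fold threshold.

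The median log2 ratio of the 4 expressed genes was -1.64, against -0.07 for the 9110 protein-coding genes, with the same limit from the minimum. Over all 9 genes it was -0.21, which is the value of Cfd and rests on 1 read and the pseudocount. With C4b at its bound and Cfd left out, the median over 8 genes without a pseudocount was -0.96. A 2-sided exact binomial test of the reads (a comparison of 2 libraries, not of populations) gave a Benjamini-Hochberg adjusted p-value under 0.05 over 21596 genes for 6 of the 9 genes, 3 higher (Masp1, C4b and Cfb) and 3 lower. That share is close to the background, since 63.7% of the 16400 protein-coding genes with a read passed too. The adjusted p-value from this exact test was 1.08e-05 for C4b, 0.00517 for Cfb, 0.149 for Cd55 and 0.608 for C2. Under an assumed coefficient of variation between cultures of 0.4, edgeR's exact test gave an unadjusted p-value under 0.01 for C3 (2.77e-05), lower in supportive ISEMFs, and for C4b (0.00139), higher. Of protein-coding genes with a read, 4.78% were called lower and 3.48% higher by that test. Serping1, Cfp and Cfb had unadjusted p-values of 0.0380, 0.0523 and 0.0418 in edgeR's exact test at this assumed variation.

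**Figure D2:**
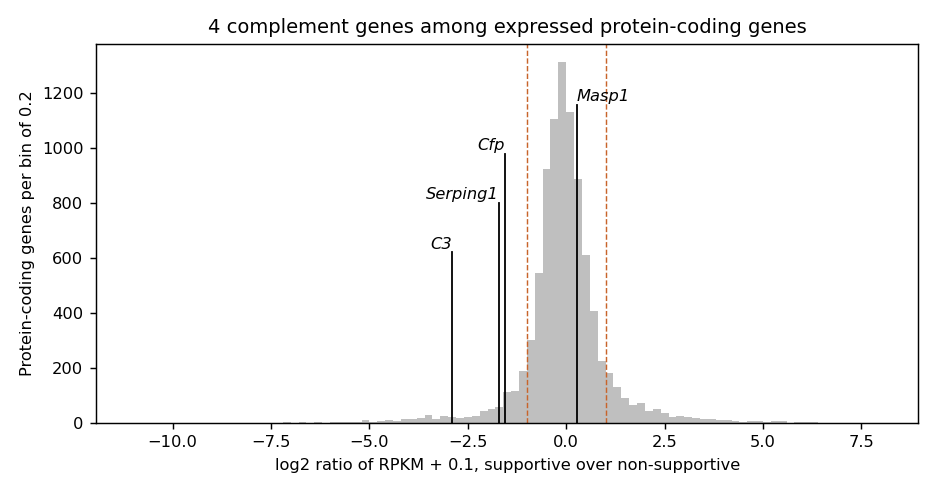
Histogram of the log2 ratio of RPKM + 0.1, supportive over non-supportive, over the 9110 expressed protein-coding genes, in bins of 0.2. Lines mark the 4 complement genes among them, with heights set only for legibility. C3 at -2.91, Serping1 at -1.71 and Cfp at -1.56 lie left of the dashed 2-fold line, and Masp1 at 0.26 lies in the central peak.

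The counting of reads limits some of these genes more than others, since the authors kept reads that mapped once and belonged to a single gene. In the GENCODE vM1 annotation of mm9, 79.5% of the exon bases of Cfb and 44.8% of those of C2 also belong to another gene, mainly Gm20547, which overlaps both. Gm20547 itself had 0 reads in both libraries. Of the 50-base windows within C4b exons, 67.0% occur once in the genome, and 67.6% of those of C4a, its near-identical neighbour, which had 4 reads in each library. For Cd55 the share was 85.1%. C3, Cfb, Cfd, Cfp and Serping1 had 100% of windows unique, C2 99.3% and Masp1 99.4%, and C3, C4b, Cfd, Cfp, Serping1 and Masp1 share no exon base with another gene. The levels of C2, Cfb and C4b are therefore uncertain and may be too low in both libraries.

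The rest of the pathway was described with a list of 45 further genes, of which 12 were expressed. Of these, 4 were at least 2-fold higher and 7 at least 2-fold lower in supportive ISEMFs, against the same backgrounds of 9.25% and 8.98%. Of these 11 genes, 8 passed the minimum through 1 library alone (C1ra, C1s and Colec11 through supportive, and C1qa, C1qb, Thbd, C5ar1 and Itgam through non-supportive ISEMFs) and so had to differ in that direction, which keeps the counts from serving as support. The higher genes include C1ra and C1s, which code for the proteases of the C1 complex. C1s had 8020 reads (12.7 RPKM) in supportive and 368 (0.599 RPKM) in non-supportive ISEMFs, a level 21.2-fold higher (95% interval, 19.1 to 23.6). C1ra was at 2.06 against 0.153 RPKM, 13.4-fold higher (9.78 to 18.9). Of the 50-base windows in their exons, 78.1% of C1s and 53.7% of C1ra occur once in the genome, and 22.4% of C1s exon bases belong to other annotated genes too. The counts used a C1s exon length of 8842 bases, against 3490 in the annotation behind these shares. The shares therefore leave out part of what was counted, and the RPKM of C1s, with its place against the minimum, rests on the longer length. The proteases C1r and C1s are targets of the C1 inhibitor, whose gene Serping1 was lower in the same cells.

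The genes of C1q, the recognition subunit of C1, went the other way from C1ra and C1s. C1qa had 0 reads in supportive and 152 (2.10 RPKM) in non-supportive ISEMFs, at least 52.1-fold lower when set against 3 reads. C1qb had 0 reads against 296 (3.92 RPKM), at least 102-fold lower. Of the collectins, which carry the MASP proteases or bind sugars on cells, Colec11 and Colec12 were higher in supportive ISEMFs. Colec10 had 4 reads there against 18, a ratio of 0.216 (95% interval, 0.0532 to 0.656), and Mbl1 and Mbl2 had 0 reads in both libraries. Colec11, a soluble partner of MASP-1, was at 1.85 against 0.156 RPKM, 11.9-fold higher (95% interval, 7.002 to 21.6). Colec12, a membrane scavenger receptor of the same family, was at 30.9 against 9.55 RPKM, 3.24-fold higher (3.09 to 3.40).

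Among membrane regulators, Cr1l, the rodent C3 convertase inhibitor Crry, was at 16.5 RPKM in supportive and 9.44 in non-supportive ISEMFs, 1.75-fold higher (95% interval, 1.63 to 1.88). Of the regulators listed, it had the highest level in both libraries, while Cd55 was at 0.0162 in supportive and 0.0356 in non-supportive ISEMFs. Cd59a, which blocks the membrane attack complex, was at 2.73 against 5.73, 2.10-fold lower (1.91 to 2.30). Its log2 ratio of -1.04 passed the 2-fold threshold, but became -0.99 with TMM scaling and did not pass. Thbd, or thrombomodulin, an endothelial anticoagulant that also promotes the breakdown of C3b, was at 0.0640 against 7.99, 125-fold lower (77.8 to 215).

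The 3 expressed receptors were lower in supportive ISEMFs. C3ar1, the receptor of the C3a fragment, was at 3.09 against 10.9, 3.52-fold lower (95% interval, 3.27 to 3.79). C5ar1, the receptor of C5a, had 1 read against 552, a ratio of 0.00176 with a 95% interval of 4.45e-05 to 0.00985. Itgam, a subunit of complement receptor 3 on myeloid cells, had 0 reads against 1070 and was at least 367-fold lower when set against 3 reads. Of the 7 terminal pathway genes and the 7 soluble regulators in the list, 0 were expressed.

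**Figure D3:**
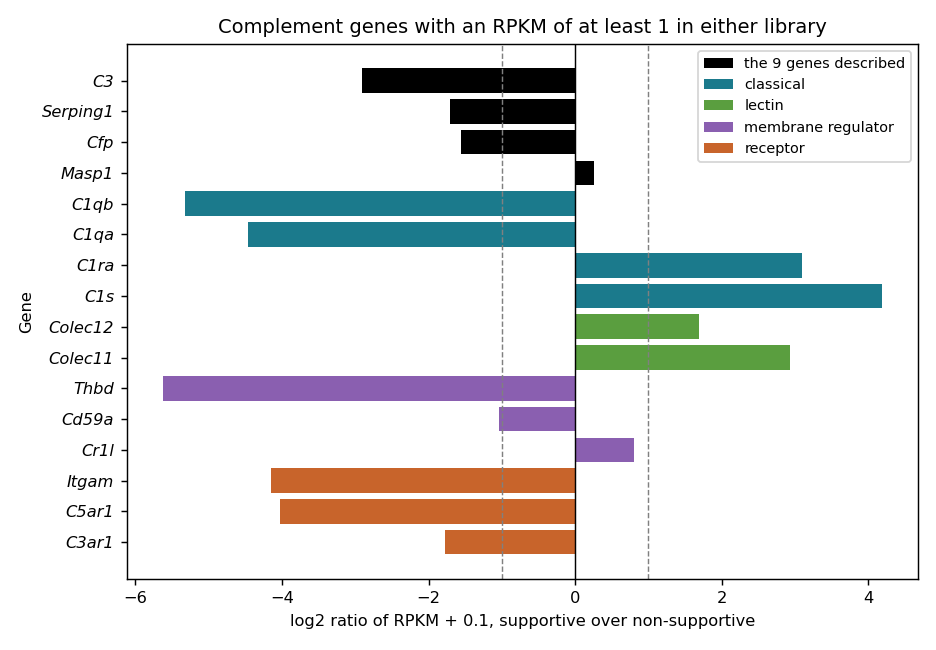
Log2 ratio of RPKM + 0.1, supportive over non-supportive, for the 16 expressed complement genes, coloured by role, with dashed lines at 2-fold. Black bars are genes of the set of 9. C1ra, C1s, Colec11 and Colec12 point to the right past the 2-fold line, and C1qa, C1qb, Thbd and the 3 receptors point to the left.

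C2 and Cfb lie next to each other in the class III region of the major histocompatibility complex, with C4b nearby. Within 150 kb of the start of C2 the table lists 31 genes, and 11 of these were expressed, while C4b lies outside that window. The log2 ratios of these 11, which include a processed transcript, ran from -1.27 to 1.11 with a median of 0.31, 8 positive and 3 negative. Of the 9110 expressed protein-coding genes, 54.9% had a log2 ratio below 0, and the median was -0.07. The highest was Neu1, a lysosomal sialidase, at 2.56 RPKM in supportive and 1.14 in non-supportive ISEMFs. The lowest was D17H6S56E-5, at 5.67 and 13.8. The log2 ratios of Cfb and C2 themselves, 0.46 and -0.07, rest on 17 and 8 reads and lie within that range.

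**Figure D4:**
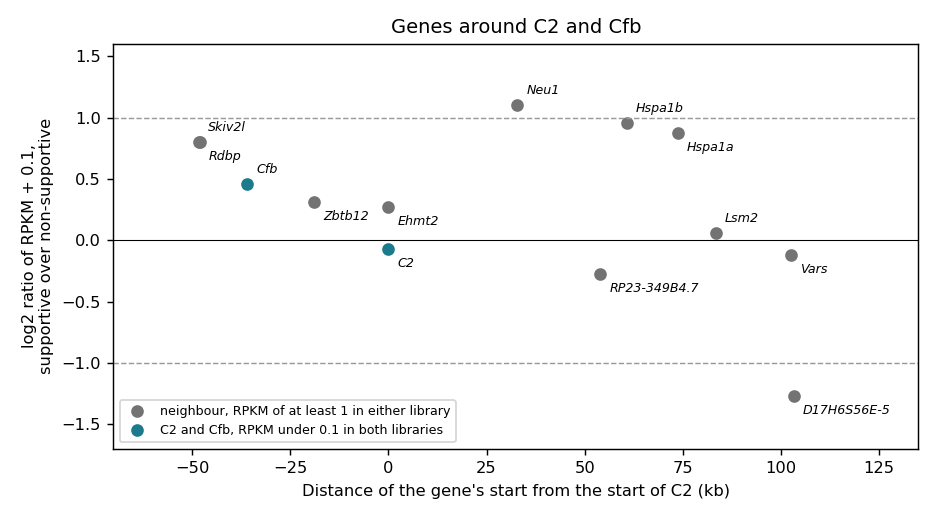
Log2 ratio of RPKM + 0.1, supportive over non-supportive, of the 11 expressed genes and of C2 and Cfb, against the distance in kb of each gene's start from the start of C2. Dashed lines mark 2-fold, and negative distances lie towards Cfb. Most neighbours sit between the dashed lines, with Neu1 at 1.11 above and D17H6S56E-5 at -1.27 below.

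Genes of other cells and of inflammatory responses also differed between the libraries. The myofibroblast markers were present in both, with Acta2, the gene of smooth muscle actin, at 908 RPKM in supportive and 1410 in non-supportive ISEMFs, and all 7 were expressed. Of these, 3 were at least 2-fold lower in supportive ISEMFs, as C3, Cfp and Serping1 were, against 8.98% of the expressed protein-coding genes. Des, the gene of desmin, was at 0.575 against 3.40 RPKM. It passed the minimum through non-supportive ISEMFs alone and so had to be lower to some degree. Myh11, a smooth muscle myosin, was at 26.3 against 108, and Pdgfra, a stromal growth factor receptor, at 3.37 against 12.1. The part of these 3 markers in the lower levels was not tested. Of 10 macrophage markers, 8 were expressed and all 8 were at least 2-fold lower in supportive ISEMFs, the same direction as C3, Cfp, Serping1, C1qa, C1qb, C3ar1, C5ar1 and Itgam. The background of 8.98% applies to this count too. Of the 8, 6 passed the minimum through non-supportive ISEMFs alone, and Lyz2, the gene of lysozyme M, was at 6.31 and 72.7 RPKM. In supportive ISEMFs, 4 of the 10 markers, Ptprc, Tyrobp, Emr1 and Aif1, had 0 reads. The other 6 were read there, with 592 reads for Lyz2, 522 for Cd53, 51 for Cd68, 25 for Csf1r, 4 for Laptm5 and 3 for Fcer1g, beside 116 for Serping1, 60 for Cfp and 23 for C3. The part of macrophage transcripts in the lower levels was not tested.

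Of 10 interferon-stimulated genes, all 7 that were expressed were at least 2-fold higher in supportive ISEMFs, with a summed RPKM over the list of 53.4 against 6.57. The background of 9.25% applies here too, and 5 of the 7 (Isg15, Ifit1, Ifit3, Usp18 and Oasl2) passed the minimum through supportive ISEMFs alone. Rsad2, of the same list, went the other way, with 19 reads in supportive and 57 in non-supportive ISEMFs, a ratio of 0.324 (95% interval, 0.182 to 0.553). C4b, Cfb and C1s were higher in the same cells, though C4b and Cfb stayed under 0.1 RPKM. C3, Cfp and Serping1 were lower there, and C2 did not show a difference at this depth. The part of an interferon response in the levels of complement genes was not tested. Of 11 acute-phase and cytokine genes, 6 were expressed. At least 2-fold lower were 3 of the 6, against a background of 8.98%, and 0 were higher by that much, against 9.25%. The lower genes include Saa3, a serum amyloid gene, with 0 RPKM in supportive and 71.8 in non-supportive ISEMFs. Saa3 passed the minimum through non-supportive ISEMFs alone and so had to be lower to some degree. Il6, at 1.66 against 3.89 RPKM, and Nfkbia, at 2.56 against 5.63, reached the minimum in both libraries. Stat3 went the other way, 1.47-fold higher in supportive ISEMFs (95% interval, 1.43 to 1.51). So did Socs3, under the minimum, with 141 reads against 73, 1.88-fold higher (1.41 to 2.53). Cebpb, which codes for a C/EBP factor, was at 1.76 and 1.70 RPKM. Its part and that of the acute-phase genes in the level of C3 were not tested.

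Adipocytes are a known source of Cfd, and Adipoq, Plin1, Cidec, Lep and Retn had at most 1 read in either library, as did Cfd. Of the 7 adipocyte markers, 2 were expressed, Fabp4 at 1.96 RPKM in supportive and 2.17 in non-supportive ISEMFs and Pparg at 0.289 and 2.33. Of the 5 neutrophil, 4 lymphocyte, 4 mast cell, 5 mesothelial and 5 endothelial markers, 0 were expressed. Of 7 epithelial markers 1 was, Krt20, at 0.0799 RPKM in supportive and 3.13 in non-supportive ISEMFs. Cdh1, of the same list but under the minimum, went the other way, with 159 reads in supportive and 18 in non-supportive ISEMFs. The level of Cdh1 was 8.58-fold higher in supportive ISEMFs, with an interval of 5.26 to 14.9.

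**Figure D5:**
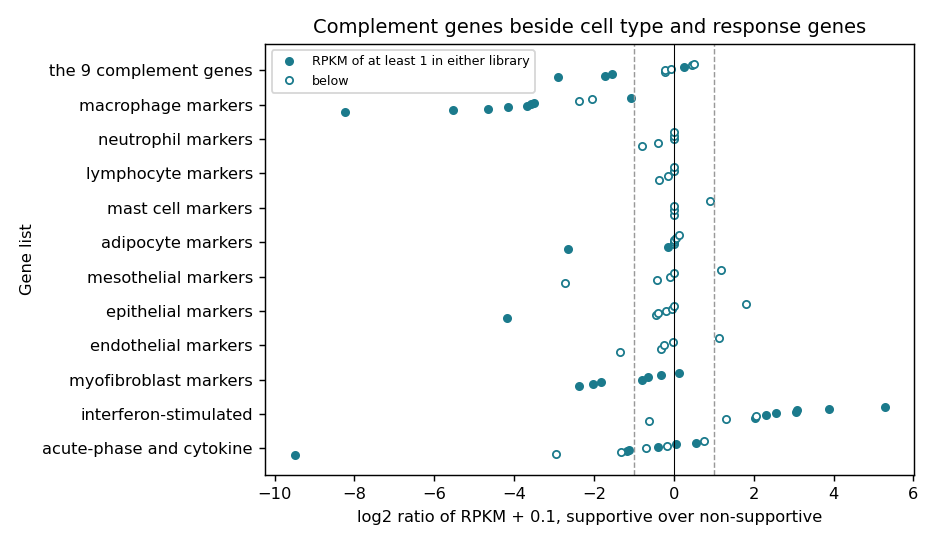
Log2 ratio of RPKM + 0.1, supportive over non-supportive, of each gene in the set of 9 complement genes and in each list of cell type or response genes, with filled points for expressed genes and dashed lines at 2-fold. Macrophage markers lie to the left, down to -8.23, and interferon-stimulated genes mostly to the right, up to 5.28.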

How the data were processed

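RNA was sequenced from 1 library of supportive and 1 library of non-supportive ISEMFs. Per the labels and the methods, the authors aligned single-end reads of 50 bases to mm9 with TopHat2 2.0.4, kept unique hits and counted reads per gene with HTSeq 0.5.4p3. The counts the authors deposited are raw reads per gene, and the deposited RPKM values are these counts divided by exon length (deposited as another column, in bases) and by library size, which the values put at 71463423 and 69449374 reads. The authors' log2 ratio and DESeq p-values, and a second table of Wnt pathway genes, were not used.

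Libraries were assigned by population name. All 37309 gene identifiers are in GENCODE vM1 (mm9), which gave coordinates and exons. The Ensembl release of the counts is not given in the sources used here. Exon lengths of C4b, C2, Cfb, Cfp, Serping1, Cd55 and some other genes were longer in the counts. Shares of exon bases and windows therefore hold for GENCODE vM1 only. The 9 genes and all lists were chosen with earlier results of these data known. Genes of the lists are named mainly where they reached an RPKM of 1 in either library, and genes of marker lists by level or as defining markers. Some genes below that minimum are named too. Among them, Colec10, Rsad2, Socs3 and Cdh1 went the other way from other genes of their list, a choice that used their values.

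To form log2 ratios 0.1 was added to each RPKM, and differences of 2-fold or more were counted at a minimum RPKM of 1. Ratio intervals are exact Clopper-Pearson intervals of the share of reads, and levels have exact Poisson intervals. A library at 0 reads was set to 3 reads. edgeR's quasi-likelihood test needs replicates and was not run, so edgeR's exact test was given an assumed coefficient of variation of 0.4. Windows of 50 bases were matched exactly, on both strands, to the mm9 genome. Fold calls, the binomial test, ratio intervals and edgeR's exact test were tried on simulated reads. Those reads were drawn without variation between cultures, so the trial does not cover that spread. Tests ran in R (4.3.3) with edgeR version 4.0.16, with size factors from DESeq2 version 1.42.0. Intervals came from scipy (1.17.1) under Python version 3.11.15, tables were handled with pandas version 2.3.3, and plots were drawn in matplotlib version 3.10.9.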

Additional observations from a re-analysis of the deposited data

How the results depend on the processing

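With 1 library per population no result has a replicate check, and no library could be left out. Of the 9 genes, 3 were at least 2-fold lower in supportive ISEMFs. This count was 0 with a pseudocount of 1, 0 with a minimum RPKM of 5, 1 with a 4-fold threshold and 1 with edgeR's exact test at an assumed coefficient of variation of 0.4. It stayed at 3 with a pseudocount of 0.001, with no minimum, and under each of 4 rescalings (TMM, median-of-ratios, median log2 ratio set to 0, and library size without mitochondrial reads). The count of genes at least 2-fold higher was 0 under all of these except edgeR's exact test, which called 1. C4b and Cfb could not enter this count by RPKM, so the 0 says nothing about them. The minimum left both out, and without it the pseudocount of 0.1 held their log2 ratios at 0.51 and 0.46. With a pseudocount of 0.001 and the minimum set aside, their log2 ratios were 5.45 and 2.69. Of the further pathway genes, 4 were higher and 7 lower, and a minimum RPKM of 5 left 2 and 3. The other settings gave 3 or 4 higher and 5 to 10 lower. The median log2 ratio of the 9 genes was -0.02 with a pseudocount of 1, -1.09 with 0.001 and -1.64 over the 4 expressed genes. Around C2, the median within 50 kb was 0.56 and rests on 4 expressed genes. The rescaling without mitochondrial reads, added after the data were seen, shifted log2 ratios up by 0.121 before the pseudocount, and those reads made 14.6% of the supportive and 7.85% of the non-supportive library. Masp1 ranged from 0.24 to 0.38 over these settings. Few reads lie behind C2, Cfd and Cd55, which did not show a difference at this depth.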

Other observations

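Some complement genes under an RPKM of 1 in both libraries still had enough reads for a narrow interval. They were chosen after their values were seen. Itgb2, the integrin subunit that pairs with Itgam, had 42 reads in supportive and 302 in non-supportive ISEMFs, 7.40-fold lower (exact 95% interval, 5.35 to 10.5). C1qc, the third chain of C1q, had 0 reads against 130 and was at least 44.6-fold lower when set against 3 reads. Clu, the gene of clusterin, a soluble inhibitor of the membrane attack complex, had 15 reads against 141, 9.67-fold lower (5.67 to 17.7). Cd46, a membrane cofactor for the cleavage of C3b, had 83 reads against 38, 2.12-fold higher (1.43 to 3.20). Cd93 had 453 reads against 419, a ratio of 1.05 with an interval of 0.918 to 1.20.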
